A study of Mus musculus with 6 samples.

Results

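The genes described here are the interferon gamma axis and the chemokine pathway that it feeds in mouse back skin. They comprise the cytokine Ifng, its receptor chains Ifngr1 and Ifngr2, the Cxcr3 ligands Cxcl9, Cxcl10 and Cxcl11, their receptor Cxcr3, and the related pair of Cxcl16 and its receptor Cxcr6. Members were chosen by gene symbol, with earlier results of these data known, and 8 of the 9 had a row among the 31053 genes of the deposited matrices. Cxcl11, annotated as a polymorphic pseudogene in GRCm38, had no row and was not analysed here.

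Female C57BL/6 mice aged 8 to 10 weeks gave 3 groups of 2 single-cell RNA libraries each. Sham skin (titled Normal in the labels) was untreated. In the IMQ group, 62.5 mg of 5% imiquimod cream, an agonist of Toll-like receptor 7 that brings on psoriasis-like inflammation, was put on the shaved back every day for 4 days, and skin was taken 1 day after the last dose. The IMQ+SHP099 group received the same cream and, by gavage, 10 mg/kg of SHP099 every day for 4 days. SHP099 blocks the tyrosine phosphatase SHP2 at an allosteric site. Cells were not sorted before capture with 10x Genomics 3′ chemistry, and no group received SHP099 alone. Each library pooled skin of several mice, so single animals cannot be told apart and every p-value measures the spread between libraries. Imiquimod on mouse skin models psoriasis over days and not the chronic human disease.

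Interferon gamma is made chiefly by natural killer (NK) cells and T cells. It binds a receptor of 2 chains on nearly every cell, which signals through the kinases JAK1 and JAK2. The chemokines CXCL9, CXCL10 and CXCL11 are made by cells that sense interferons and draw in T cells and NK cells that carry CXCR3. CXCL16 is unusual among chemokines in that it is made as a transmembrane protein, is shed by ADAM10, and binds CXCR6 on tissue T cells.

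After filtering, 50850 of 55201 barcodes were kept, with 7382 to 10293 cells per library and a median of 5645 to 18264 unique molecular identifiers (UMIs, 1 per captured transcript) per cell. Cells were put into classes by marker genes alone, and 5196 cells (10.2%) fell outside the gates. The first libraries of Sham and of IMQ+SHP099 stood apart, since keratinocytes took 70.8% and 61.2% of their cells against 5.88% to 21.7% in the other 4. Both held few NK cells (4 and 15) and myeloid cells (194 and 162 against 430 to 839), although their 419 and 399 lymphocytes were not fewer than the 277 to 673 of the others, and results are also given without them where they change. Libraries shared 345 distinct barcodes (0.629%). No doublet caller was run, and the 2645 cells whose score for a second major class reached its limit were left out of the classes. Genes used in the gates are given as a description, since cells were assigned by them and they cannot test the class names. Ncr1 was found in 84.5% of NK cells and 0.140% of other cells, Il17a in 75.2% of type 17 cells and 0.592% of others, Ly6c2 in 79.8% of monocytes, C1qa in 96.1% of macrophages, Plvap in 81.7% of blood endothelial cells and Krt14 in 93.8% of keratinocytes. Krt14 was also found in 35.0% of all other cells, and type 17 cells rarely showed the Tcrg-V6 segment (6.52%).

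Levels are given in CPM, the UMIs of a gene for every 1000000 UMIs of the cells of a class in a library. They are always listed in the order Sham 1, Sham 2, IMQ 1, IMQ 2, IMQ+SHP099 1 and IMQ+SHP099 2. Groups were compared on UMIs summed per library and class by the quasi-likelihood test of edgeR with all 6 libraries in each fit. The fits scale each library by a further factor, in keratinocytes from 0.789 (IMQ+SHP099 1) to 1.40 (Sham 2). Fold changes can therefore differ from ratios of the CPM given. P-values were adjusted by the method of Benjamini and Hochberg over all genes of that sum, and a gene was called where the adjusted p was under 0.05. Poisson intervals and the limit that a count of 0 allows (3 counts) cover counting error only.

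The axis was divided between cell types, as the map of mean levels by class shows. Ifng lay chiefly in lymphocytes, led by NK cells, and lymphocytes held 75.7% to 88.1% of its UMIs in 5 libraries and 27.8% in Sham 1. Cxcr3 was carried by alpha-beta T and NK cells, and Cxcr6 by type 17, gamma-delta and alpha-beta T cells. Cxcl10 was widespread, Cxcl9 was rare and held by a few cells, and the receptor chains were found in nearly every class. Among classes with a library of at least 30 cells, Cxcl16 was highest in Langerhans cells. Between groups, Cxcl10 rose 4.19-fold in endothelial cells of IMQ against Sham skin, Cxcl9 fell in macrophages and monocytes of IMQ skin, and Cxcl10 rose 3.18-fold in keratinocytes of IMQ+SHP099 against Sham skin. Each of these calls depended on which libraries were in the fit. That of Cxcl9 also rests on few cells, in a sum that was mostly macrophages in Sham and mostly monocytes in IMQ.

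**Figure D1:**
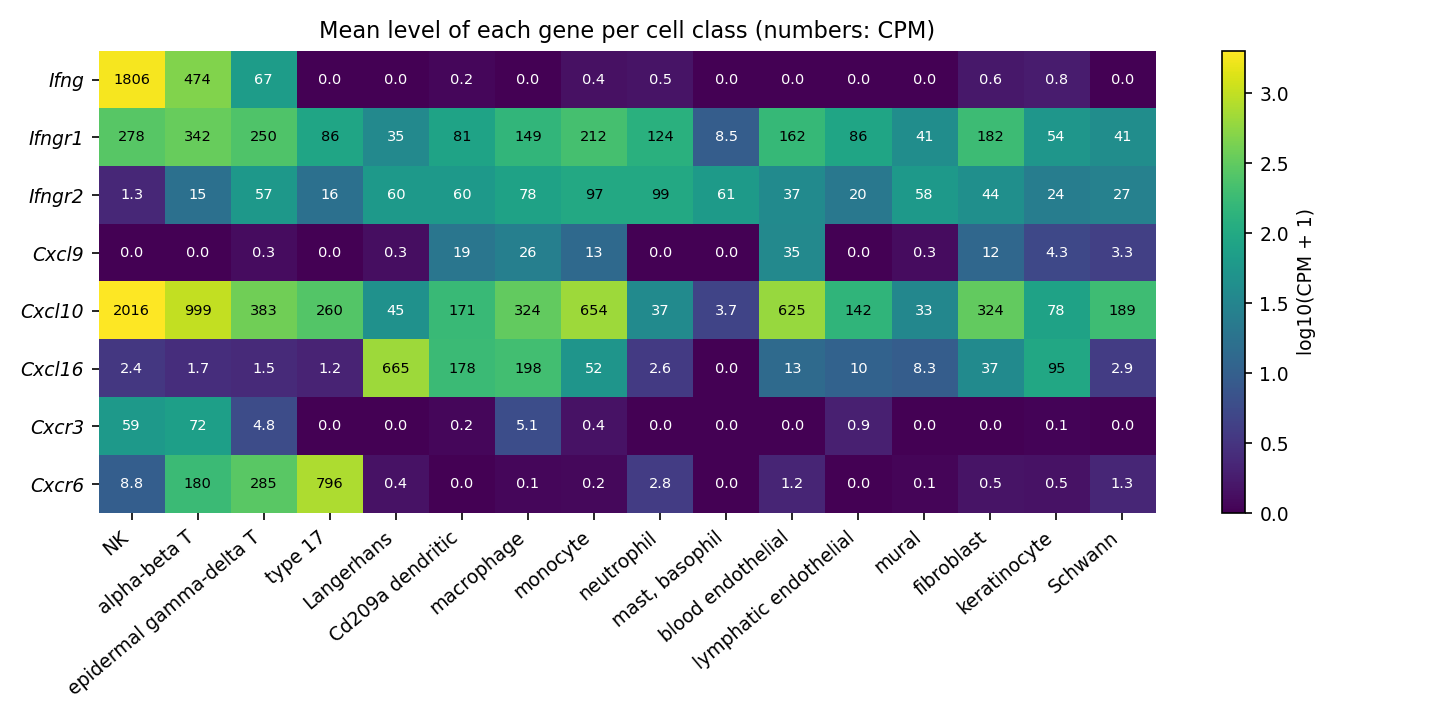
Mean level of each gene (rows) in each marker-gated class (columns), in CPM on a log10 scale after adding 1, over the libraries with at least 30 cells of that class. Ifng is bright in NK cells (1806 CPM), alpha-beta T cells (474) and gamma-delta T cells (66.5) and under 1 in the other classes, whereas Cxcl10 and both receptor chains are spread over most columns.

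In all, 46 member-by-sum tests could be made in 8 sums (all cells, keratinocytes, fibroblasts, endothelial cells, myeloid cells, macrophages with monocytes, dendritic cells and lymphocytes). For IMQ against Sham, 2 of the 46 were called, 1 higher and 1 lower, where 2.74% of all gene tests were called. For IMQ+SHP099 against IMQ none was called by edgeR or by DESeq2, 4 had an unadjusted p under 0.05 in edgeR, and the share over all genes was 0.00348%. In the contrast of IMQ+SHP099 with Sham 1 was called, where the share over all genes was 2.47%. The last contrast shares its Sham libraries with the first. The members' shares therefore lay close to those over all genes. In the sum of lymphocytes none of 8903 genes was called in any contrast by edgeR, with 1331 genes at an unadjusted p under 0.05 for IMQ against Sham. With the replicate number as a block in the same fit, 385 lymphocyte genes (4.32%) were called for IMQ against Sham, 0 for IMQ+SHP099 against IMQ and 53 for IMQ+SHP099 against Sham, and the members called in the 3 contrasts numbered 6, 0 and 2 over all sums.

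Ifng (ENSMUSG00000055170, chr10:118441046-118445892, plus strand, GRCm38) was measured by 5345 UMIs in 595 cells. It overlaps the annotated gene Gm49751 on the same strand, so reads of the pair may not be separable. Its transcripts were concentrated in few cells. In the 6 libraries, in the order above, 50% of Ifng UMIs were held by 1, 13, 14, 23, 4 and 19 cells, and the highest single cell held 53, 74, 137, 78, 36 and 104 UMIs. NK cells held 33.0% to 63.3% of all Ifng UMIs in every library except Sham 1, where only 4 NK cells were found and 70.1% of Ifng UMIs lay in cells outside the gates.

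In NK cells the level of Ifng was 523, 1738, 2316, 1646, 1446 and 1525 CPM. Apart from Sham 1 (4 cells), all libraries of the 3 groups lay within a narrow band, and 66.7% to 83.3% of NK cells had an Ifng UMI against 0.0164% to 0.643% of keratinocytes. Sham 2 lay between the IMQ libraries. Alpha-beta T cells gave 56.6, 499, 345, 623, 46.3 and 848 CPM. The low values were those of the libraries with 38 and 20 such cells, and the groups overlapped. In epidermal gamma-delta T cells, the resident T cells of mouse epidermis, Ifng was at 5.33, 112, 38.2, 65.7, 53.3 and 125 CPM. Over libraries with at least 30 cells the 3 classes ranked NK 1806 ± 351 (SD, n = 4 libraries), alpha-beta T 474 ± 297 (n = 5) and gamma-delta T 66.5 ± 45.1 (n = 6), each gap being wider than the pooled SD. All other classes were below 1 CPM and did not differ beyond their spread.

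Type 17 cells, the makers of Il17a, had no Ifng UMI in any library. In IMQ 1, with 102 such cells, this allows up to 4.68 CPM. No Ifng UMI was found in endothelial cells either. Summed over all lymphocytes, Ifng was at 23.5, 496, 433, 855, 170 and 639 CPM. The log2 fold change was 1.61 (SE 1.11, adjusted p = 0.506) for IMQ against Sham, -0.74 (SE 1.09, adjusted p = 1.00) for IMQ+SHP099 against IMQ and 0.86 (SE 1.09, adjusted p = 0.822) for IMQ+SHP099 against Sham. Libraries of the groups overlapped in all 3 contrasts. With the replicate block, which pairs Sham 1 with IMQ 1 and Sham 2 with IMQ 2, the change for IMQ against Sham was 2.45 with an adjusted p of 0.0389 in edgeR. The lymphocyte sum mixed classes in unequal parts, since gamma-delta T cells made up 357 of the 419 lymphocytes in Sham 1 and 55 of the 277 in IMQ 2, while NK cells numbered 4, 38, 65, 102, 15 and 80. In gamma-delta T cells alone the fold change of Ifng for IMQ against Sham was -0.064 (log2), an alternative added after the data were seen.

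**Figure D2:**
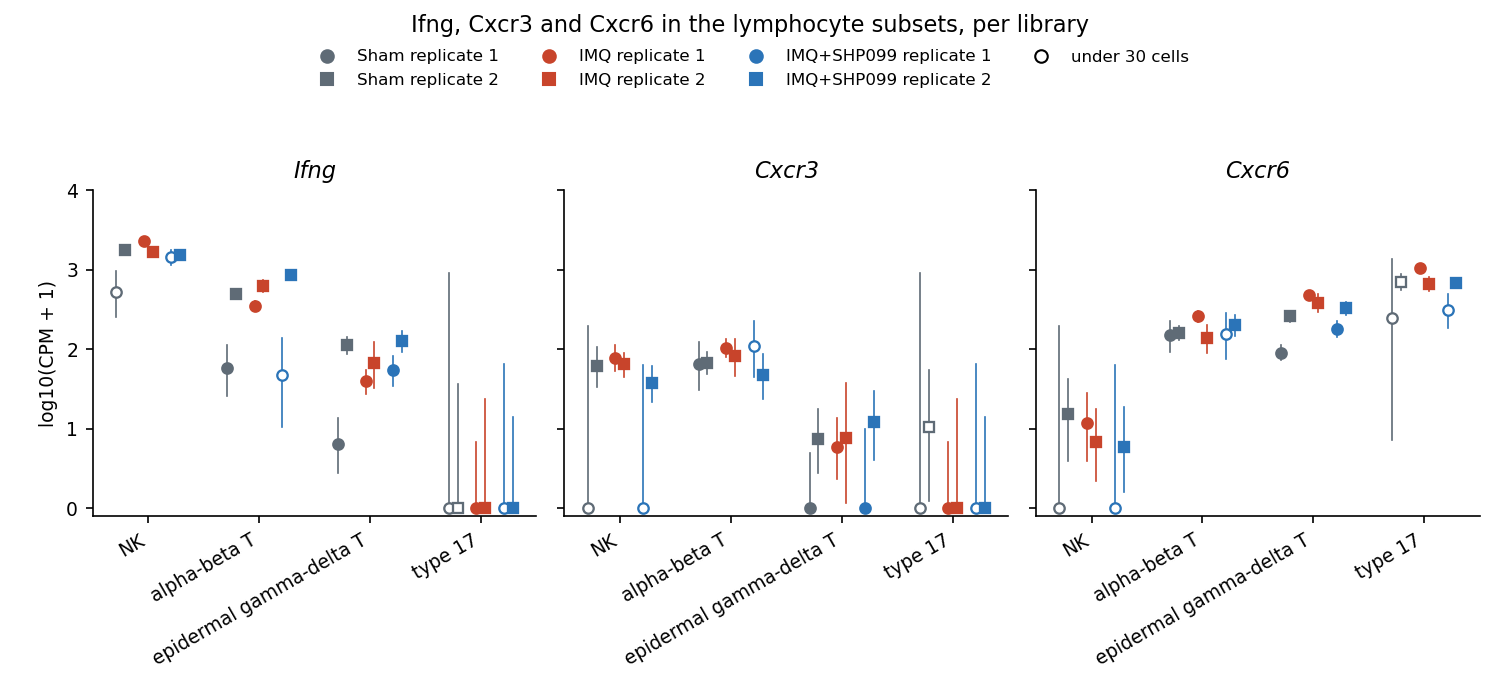
Levels of Ifng, Cxcr3 and Cxcr6 in CPM (log10 axis after adding 1) in each library, by lymphocyte class; bars are 95% Poisson intervals and open symbols mark libraries with under 30 cells of that class. Ifng is highest in NK cells and at 0 in type 17 cells, whereas Cxcr6 is highest in type 17 cells and lowest in NK cells, and the groups overlap in most panels.

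The receptor chains were present in most classes. Ifngr1 (ENSMUSG00000020009, chr10:19591949-19610229, plus strand) encodes the chain that binds the cytokine, and Ifngr2 (ENSMUSG00000022965, chr16:91547072-91565623, plus strand) the chain needed to signal. Ifngr1 was found in 54.8% of all cells, and its level was highest in alpha-beta T cells, at 389, 252, 359, 341, 355 and 366 CPM, with no group apart from the others. NK cells, gamma-delta T cells, monocytes, fibroblasts, blood endothelial cells and macrophages followed in that order, and among these followers neighbours did not differ beyond their pooled SD.

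Keratinocytes gave Ifngr1 at 120, 66.8, 27.2, 28.9, 47.8 and 33.4 CPM, so that IMQ lay below the range of Sham. The change was -1.51 (log2, SE 0.45, adjusted p = 0.0661), short of the threshold, and -1.36 with the replicate block (adjusted p = 0.0130). Without Sham 1 and IMQ+SHP099 1, an alternative added after the data were seen, it was -0.67 with an adjusted p of 0.00727. In endothelial cells the level was 185, 184, 87.3, 105, 99.0 and 123 CPM, which again put both IMQ libraries below Sham (-0.86, SE 0.25, adjusted p = 0.205). The lower level lay in blood endothelial cells, with a mean of 299 ± 98.8 CPM in Sham and 107 ± 24.0 in IMQ (SD, n = 2 libraries). In lymphatic cells the mean was 81.8 ± 28.8 and 91.9 ± 3.42 CPM. The share of blood cells among endothelial cells was uneven between libraries, and its part was not tested. Fibroblasts went the other way from keratinocytes, with 147, 118, 209, 199, 170 and 248 CPM, and both IMQ libraries were above Sham (0.66, SE 0.32, adjusted p = 0.507). Macrophages with monocytes also had both IMQ libraries above Sham, at 105, 193, 215, 214, 134 and 157 CPM (0.69, SE 0.36, adjusted p = 0.289). That sum was mostly macrophages in Sham and mostly monocytes in IMQ. In macrophages alone the mean was 135 ± 60.9 CPM in Sham and 168 ± 71.1 in IMQ (SD, n = 2 libraries). In monocytes alone it was 202 ± 66.0 and 222 ± 9.63, with only 7 monocytes in Sham 1. The part of makeup in this change was not tested. None of these changes was called. Langerhans cells, the dendritic-like cells of the epidermis, held little Ifngr1, at 5.19, 18.4, 38.2, 74.4, 21.2 and 58.9 CPM, where the Sham values rest on 3 and 4 UMIs.

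Ifngr2 was found in 28.5% of cells. Monocytes had it at 95.2 to 101 CPM in every library except Sham 1, which had only 7 monocytes. The values in macrophages with monocytes were 59.1, 84.9, 97.9, 97.8, 89.1 and 92.9 CPM, with both IMQ libraries above Sham (log2 fold change 0.60, SE 0.32, adjusted p = 0.302). This sum too was mostly macrophages in Sham and mostly monocytes in IMQ. In macrophages alone the mean was 74.3 ± 10.9 CPM in Sham and 89.2 ± 14.9 in IMQ (SD, n = 2 libraries). Keratinocytes gave 14.5, 28.4, 25.8, 28.1, 20.4 and 27.2 CPM, and the groups overlapped (0.70, SE 0.25, adjusted p = 0.105). NK cells had no Ifngr2 UMI in 5 of the 6 libraries and 2 UMIs in IMQ 1, while Ifngr1 in the same NK cells was at 366, 248, 307, 303, 493 and 254 CPM. Alpha-beta T cells gave Ifngr2 at 28.3, 19.8, 13.8, 10.8, 15.4 and 4.64 CPM from 1 to 12 UMIs a library. In all lymphocytes it was at 40.9, 40.9, 19.4, 18.3, 45.7 and 18.1 CPM, and both IMQ libraries were below Sham (-0.90, SE 0.42, adjusted p = 0.351). In epidermal gamma-delta T cells alone it was at 44.8, 76, 44.3, 59.2, 67.9 and 47.2 CPM, which did not separate the groups.

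**Figure D3:**
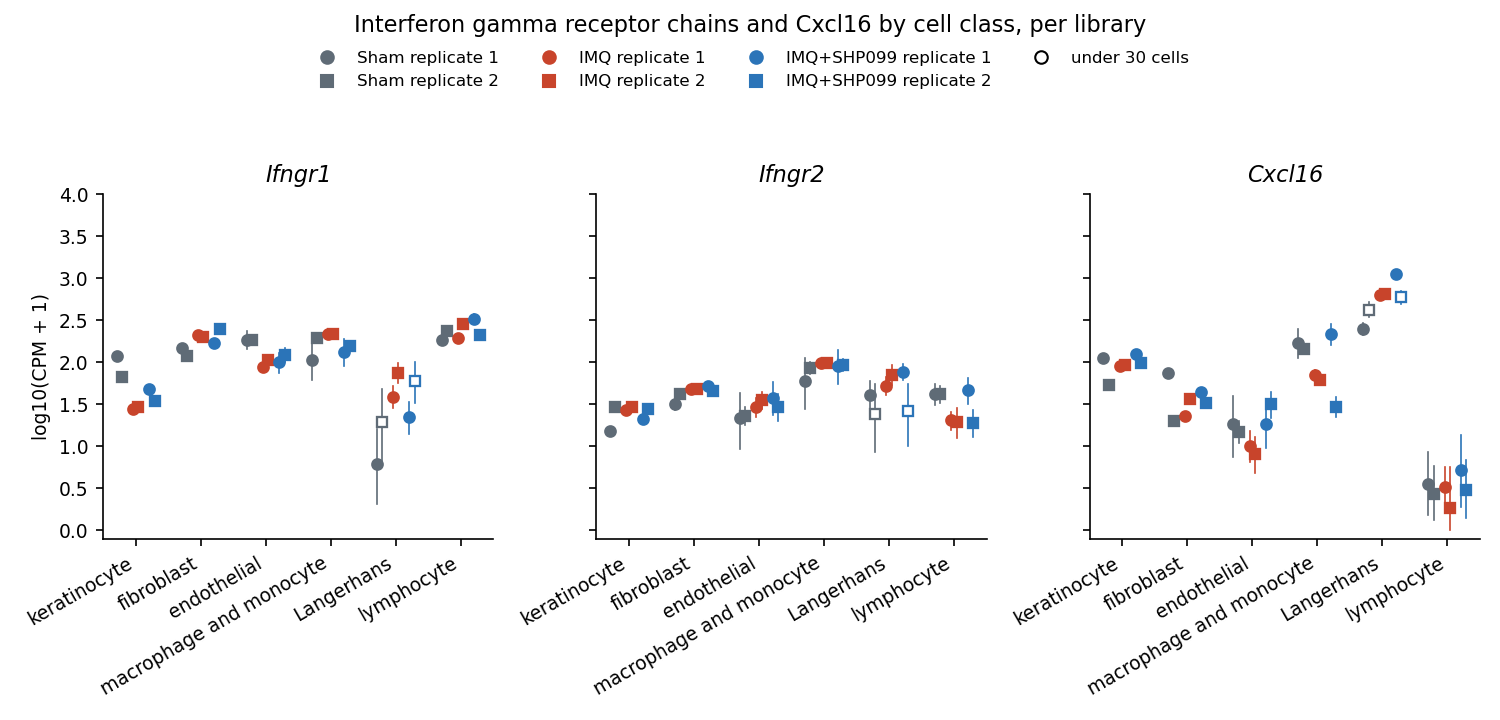
Levels of Ifngr1, Ifngr2 and Cxcl16 in CPM (log10 axis after adding 1) in each library, by class; bars are 95% Poisson intervals and open symbols mark libraries with under 30 cells. Ifngr1 in keratinocytes and in all endothelial cells together is lower in both IMQ libraries than in both Sham libraries, and Cxcl16 is near 0 in lymphocytes (0.834 to 4.29 CPM).

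Cxcl9 (ENSMUSG00000029417, chr5:92321347-92328079, minus strand) and Cxcl10 (ENSMUSG00000034855, chr5:92346638-92348889, minus strand) are neighbours, 18558 bases apart, and Cxcl11 lies 10654 bases beyond Cxcl10. Art3 overlaps Cxcl10 on the other strand. Their promoters are shown because both genes are targets of interferons, yet differed in where they were found and in how they moved between groups. The 250 bases before each start are given from RefSeq (GRCm38.p6), 5′ to 3′ on the minus strand, with matches to 2 motifs in capitals. These are the core of the interferon-stimulated response element, searched as GAAA, NN and GAAA in a row, and a short form of the site bound by NF-kB, searched as GGGNNTTCC.
Cxcl9, chr5:92328080-92328329: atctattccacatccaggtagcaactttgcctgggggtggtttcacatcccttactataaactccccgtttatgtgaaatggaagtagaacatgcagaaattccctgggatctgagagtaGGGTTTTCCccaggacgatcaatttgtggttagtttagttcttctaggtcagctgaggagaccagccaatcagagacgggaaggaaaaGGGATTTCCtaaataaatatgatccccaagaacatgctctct
Cxcl10, chr5:92348890-92349139: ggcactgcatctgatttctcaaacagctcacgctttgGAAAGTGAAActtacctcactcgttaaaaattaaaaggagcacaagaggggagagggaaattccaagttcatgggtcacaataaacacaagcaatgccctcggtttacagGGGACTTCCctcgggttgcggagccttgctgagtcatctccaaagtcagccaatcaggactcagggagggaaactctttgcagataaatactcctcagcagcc

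In Cxcl10 the first capitals, GAAAGTGAAA, lie 213 to 204 bases before the start and the NF-kB match lies 103 to 95 bases before it. Cxcl9 held NF-kB matches at 130 to 122 and at 42 to 34 bases before the start and no match to the response element in this window. Both strands were searched, and the motifs do not overlap here. Over all 27025 promoters of the same length, the response element core was found in 3.04% and GGGNNTTCC in 4.88%. Promoters of 7 of the 9 members were in the table, all but Cxcl11 and Cxcl16. A match describes letters and is no measured binding. Longer forms of the NF-kB site, such as gggaaattcc in the Cxcl10 window, were not searched, so the matches do not count all such sites.

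Cxcl10 was the most widespread chemokine of the set, with 110693 UMIs in 22.9% of cells. In endothelial cells it was at 120, 190, 542, 697, 202 and 240 CPM. Both IMQ libraries stood above all others, and both IMQ+SHP099 libraries lay just above Sham. The group mean was 155 ± 49.2 for Sham, 619 ± 110 for IMQ and 221 ± 27.2 for IMQ+SHP099 (SD, n = 2 libraries). Cxcl10 rose by 2.07 on the log2 scale for IMQ against Sham (SE 0.29, adjusted p = 0.0405), where 0.152% of the genes tested in endothelial cells were called. The values rest on 41, 515, 1129, 1389, 114 and 227 UMIs. Single cells held much of the lowest values: 1 cell of Sham 1 held 38 of its 41 UMIs, and 1 cell of IMQ 1 held 284. Without the highest cell of each library the levels were 9.01, 162, 412, 630, 136 and 203 CPM, in which both IMQ libraries still stood above all others.

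The share of endothelial cells with a Cxcl10 UMI was 2.88%, 13.8%, 20.6%, 21.5%, 12.6% and 14.1%, and 1.56%, 8.98%, 12.1%, 17.2%, 9.83% and 11.4% once each cell was thinned to 2000 UMIs. The shares of IMQ lay above those of both other groups, and the exact two-sided permutation test over libraries gave p = 0.333, the smallest that 2 against 2 allows. Markers of keratinocytes in endothelial cells were at 0.296% to 1.60% of their level in keratinocytes, and those of myeloid cells at 0.242% to 0.549%. Against IMQ, the change of Cxcl10 in IMQ+SHP099 was -1.47 (log2, SE 0.29), with both IMQ libraries above both others, with an unadjusted p of 0.000616 in the edgeR fit and an adjusted p of 0.856. Against Sham it was 0.59 (SE 0.29, adjusted p = 0.431). The call for IMQ against Sham was lost when any IMQ or IMQ+SHP099 library was left out and passed without either Sham library, with log2 fold changes of 1.9 to 2.33 and adjusted p-values of 0.00611 to 0.244.

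IMQ libraries had the highest Cxcl10 in blood endothelial cells, and in lymphatic cells they lay above Sham. Blood endothelial cells gave Cxcl10 at 388, 241, 1010, 936, 260 and 312 CPM from 20 to 320 cells, and lymphatic cells gave 4.26, 58.5, 168, 298, 98.9 and 227 CPM from 82 to 175 cells. In lymphatic cells IMQ 1 lay below IMQ+SHP099 2, so that those groups overlapped. The share of blood cells among endothelial cells was uneven, with 20 of 104 in Sham 1 and 320 of 436 in Sham 2 against 52 of 228 and 58 of 251 in IMQ. In blood endothelial cells alone, an alternative added after the data were seen, the log2 fold change for IMQ against Sham was 1.82 with an adjusted p of 0.109.

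In keratinocytes the order of the groups differed. Cxcl10 was at 54.7, 37.1, 89.9, 64.3, 130 and 92.0 CPM, with a mean of 45.9 ± 12.5 for Sham, 77.1 ± 18.1 for IMQ and 111 ± 27.2 for IMQ+SHP099 (SD, n = 2 libraries). Both IMQ+SHP099 libraries lay above both IMQ libraries, which lay above both Sham libraries. Cxcl10 rose by 1.67 on the log2 scale in IMQ+SHP099 against Sham (SE 0.44, adjusted p = 0.0429), where 13.3% of the genes tested in keratinocytes were called. The changes for IMQ against Sham (1.00, SE 0.43, adjusted p = 0.163, where 12.3% of all genes were called) and for IMQ+SHP099 against IMQ (0.67, SE 0.43, adjusted p = 1.00) were not called. With the replicate block the first of these was 1.06 with an adjusted p of 0.0160 in edgeR. Shares of keratinocytes with a Cxcl10 UMI were 12.1%, 10.2%, 26.7%, 24.3%, 28.8% and 26.0%, and after thinning 4.55%, 3.38%, 9.71%, 7.40%, 11.2% and 9.07%, against 1.5% to 11.2% of mural cells before thinning. Leaving out single libraries gave log2 fold changes of 1.19 to 2.28 for IMQ+SHP099 against Sham, and the call was lost without Sham 2 (1.19, adjusted p = 0.107), without IMQ+SHP099 1 (1.19, adjusted p = 0.257) and without IMQ+SHP099 2 (2.06, adjusted p = 0.0647).

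Fibroblasts, the largest source of Cxcl10 in 4 libraries with 41.2% to 67.7% of its UMIs, gave 545, 278, 262, 308, 346 and 204 CPM and no order of the groups (-0.54 for IMQ against Sham, SE 0.50, adjusted p = 0.835). In the keratinocyte-rich libraries keratinocytes held most, 47.7% in Sham 1 and 73.6% in IMQ+SHP099 1. Macrophages with monocytes gave 282, 593, 839, 478, 152 and 472 CPM (0.80 for IMQ against Sham, SE 0.55, adjusted p = 0.440), with both IMQ+SHP099 libraries below both IMQ libraries (-0.98, SE 0.55, adjusted p = 1.00). Lymphocytes also held the transcript. NK cells reached 261, 2323, 3216, 1355, 3147 and 1170 CPM, with a UMI in 25.0% to 63.1% of cells, and alpha-beta T cells 163, 1572, 849, 1777, 803 and 635. Markers of keratinocytes in NK cells were at 0.278% to 2.06% of their level in keratinocytes. Over libraries with at least 30 cells the level in NK cells (2016 ± 946, n = 4) exceeded that in alpha-beta T cells (999 ± 669, n = 5) by more than the pooled SD, and monocytes, blood endothelial cells, gamma-delta T cells, fibroblasts and macrophages followed without gaps beyond it.

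**Figure D4:**
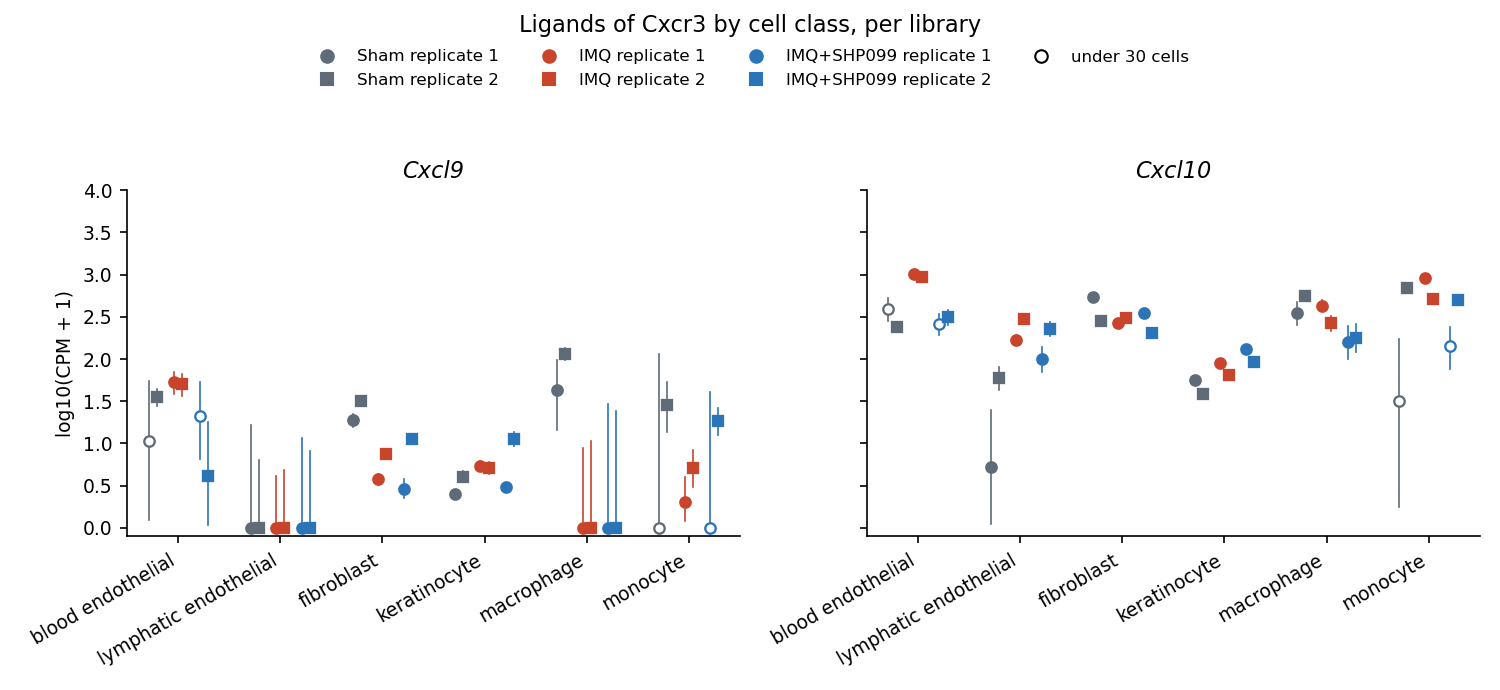
Levels of Cxcl9 and Cxcl10 in CPM (log10 axis after adding 1) in each library, by class; bars are 95% Poisson intervals and open symbols mark libraries with under 30 cells. Cxcl10 in endothelial classes is highest in IMQ apart from 1 overlap in lymphatic cells, whereas Cxcl9 is at 0 in lymphatic cells of every library and in macrophages of all 4 treated libraries.

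Cxcl9 was far less often detected, with 3707 UMIs in 1.63% of cells. In macrophages with monocytes it was at 32.8, 95.5, 0.898, 3.65, 0 and 15.8 CPM. Both IMQ libraries were under the Sham range, and Cxcl9 fell by 4.86 on the log2 scale (SE 0.60, adjusted p = 0.00203), where 6.01% of the genes tested in this sum were called. The call rests on few cells. The counts were 5, 144, 3, 11, 0 and 27 UMIs, of which 1 cell held 4, 98, 2, 5, 0 and 25. Without the highest cell of each library the levels were 6.77, 30.7, 0.300, 1.99, 0 and 1.17 CPM. The call was lost without Sham 2 (-3.73, adjusted p = 0.392).

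The makeup of this sum also differed between groups. Macrophages were 33 of 40 and 284 of 342 cells in Sham but 62 of 445 and 54 of 434 in IMQ, the rest being monocytes. In macrophages alone Cxcl9 was at 41.6 and 114 CPM in Sham and had no UMI in any treated library, which allows up to 6.37 CPM in IMQ 1 and 7.87 in IMQ 2. In monocytes it was at 0, 27.6, 1.05, 4.17, 0 and 17.4 CPM. Dendritic cells gave 14.1 and 29.8 CPM in Sham and 0 in the 4 treated libraries, which had only 6 to 20 such cells. Their sums held 42071, 124402, 20748 and 14951 UMIs over the genes tested, too few for a 0 to show a level below Sham. The change in macrophages with monocytes for IMQ+SHP099 against IMQ was 2.60 (SE 0.76, adjusted p = 1.00), and against Sham it was -2.26 (SE 0.59, adjusted p = 0.0712, where 2.54% of all genes were called), or -2.41 with the replicate block (adjusted p = 0.0144).

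In fibroblasts Cxcl9 was at 17.9, 30.6, 2.75, 6.50, 1.92 and 10.3 CPM, and all treated libraries lay below Sham (-2.29 for IMQ against Sham, SE 0.69, adjusted p = 0.216). With the replicate block this change was -2.43 with an adjusted p of 0.0375 in edgeR. Keratinocytes gave 1.54, 3.06, 4.44, 4.11, 2.02 and 10.3 CPM, with both IMQ libraries above Sham (1.27, SE 0.61, adjusted p = 0.201). In blood endothelial cells it was at 9.71, 34.1, 51.9, 49.2, 20.4 and 3.08 CPM, while none of the 82 to 175 lymphatic cells a library had a UMI. Over all endothelial cells the change for IMQ+SHP099 against IMQ was -2.65 (SE 0.79, adjusted p = 1.00), from 44 and 45 UMIs in IMQ and 4 and 1 in IMQ+SHP099. Without Sham 1 and IMQ+SHP099 1 it was -4.31 with an adjusted p of 0.00555. The same fit gave -1.38 for Cxcl10 (adjusted p = 0.00161), an alternative added after the data were seen that leaves 1 library in each of those groups.

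Cells with Cxcl9 often held Cxcl10 as well. Of 480 fibroblasts with a Cxcl9 UMI, 59.8% had Cxcl10, against 28.1% of fibroblasts without Cxcl9, and these double cells were only 4.98% of the 5762 fibroblasts with Cxcl10. Of 44 endothelial cells with Cxcl9, 59.1% had Cxcl10, against 14.0% of the others. The double cells were deeper, with a median of 11950 UMIs in fibroblasts against 7646 in the class, and 13775 against 4378 in endothelial cells. The part of depth in this overlap was not tested.

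Cxcl16 (ENSMUSG00000018920, chr11:70453983-70459984, minus strand) overlaps Zmynd15 on the other strand and was found in 31.1% of cells. Among classes with a library of at least 30 cells, Langerhans cells were the strongest. They had 251, 424, 635, 655, 1119 and 593 CPM and a UMI in 54.7% to 100% of cells, against 0.361% to 1.04% of lymphocytes. All 4 treated libraries lay above both Sham libraries in Langerhans cells. The Sham values rest on 95 and 18 cells, and Langerhans cells were not tested as a sum of their own. Dendritic cells with Ccr7 also held much Cxcl16, at 386 to 1134 CPM, but from no more than 9 cells a library. In the sum of 3 dendritic classes Cxcl16 was at 211, 203, 273, 434, 728 and 437 CPM, and the change for IMQ+SHP099 against Sham was 1.34 (SE 0.55, adjusted p = 0.499).

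Keratinocytes, which held 38.9% to 87.7% of all Cxcl16 UMIs, gave 112, 52.3, 90.5, 93.3, 124 and 98.0 CPM. Both IMQ+SHP099 libraries lay above both IMQ libraries (0.41, SE 0.48, adjusted p = 1.00), while Sham overlapped both other groups (0.36 for IMQ against Sham, SE 0.48, adjusted p = 0.648). Macrophages gave 208, 156, 253, 165, 327 and 76.6 CPM. Endothelial cells were low, at 17.6, 14.0, 9.12, 7.02, 17.7 and 30.7 CPM, with both IMQ libraries below all others. The change for IMQ+SHP099 against IMQ was 1.63 (SE 0.42, adjusted p = 1.00), from 19 and 14 UMIs in IMQ and 10 and 29 in IMQ+SHP099. Over libraries with at least 30 cells Langerhans cells (665 ± 355, n = 4) led macrophages (198 ± 86.3, n = 6) by more than the pooled SD, and macrophages and Cd209a dendritic cells did not differ beyond it.

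Cxcr3 (ENSMUSG00000050232, chrX:101731535-101734269, minus strand), the receptor of the interferon-induced ligands, was the scarcest member, with 404 UMIs in 295 cells. Alpha-beta T cells had it at 63.7, 65.9, 102, 81.3, 108 and 46.4 CPM, from 7 to 59 UMIs a library. NK cells gave 0, 60.9, 76.8, 63.2, 0 and 36.7 CPM, where the 0 values come from 4 and 15 cells. The 2 classes did not differ beyond their spread (71.8 ± 20.8, n = 5, and 59.4 ± 16.7, n = 4). Gamma-delta T cells had 0 to 4 UMIs a library. Outside lymphocytes, Xcr1 dendritic cells of Sham 2 had Cxcr3 in 27.5% of 40 cells (25.9 CPM, 15 UMIs), and macrophages stayed at 0 to 11.8 CPM. Of keratinocytes 0% to 0.386% had a UMI.

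In all lymphocytes Cxcr3 was at 8.70, 34.2, 32.3, 49.2, 15.7 and 26.1 CPM. The change was 1.11 (log2, SE 0.55, adjusted p = 0.377) for IMQ against Sham, where Sham 2 lay between the IMQ libraries. It was -0.98 (SE 0.57, adjusted p = 1.00) for IMQ+SHP099 against IMQ, where both IMQ+SHP099 libraries lay below IMQ. Fewer Cxcr3 cells among lymphocytes and less Cxcr3 per cell cannot be told apart in such a sum.

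Cxcr6 (ENSMUSG00000048521, chr9:123806475-123811760, plus strand), the receptor of Cxcl16, overlaps Fyco1 on the other strand. It was highest in type 17 cells, at 245, 707, 1048, 660, 313 and 679 CPM, of which those of Sham 1 and IMQ+SHP099 1 rest on 2 and 6 cells. A Cxcr6 UMI was found in 76%, 92.2%, 96.9% and 87.3% of type 17 cells in Sham 2, IMQ 1, IMQ 2 and IMQ+SHP099 2, against 0.151% to 1.29% of keratinocytes. Gamma-delta T cells followed with 89.6, 257, 478, 381, 179 and 328 CPM, so that both IMQ libraries lay above all others. Alpha-beta T cells were even across groups, at 149, 160, 257, 135, 154 and 199 CPM. NK cells were low, at 0, 14.1, 10.6, 5.75, 0 and 4.90 CPM. Each step of this order, from type 17 (796 ± 219, n = 3) to gamma-delta T (285 ± 140, n = 6), alpha-beta T (180 ± 49.2, n = 5) and NK cells (8.82 ± 4.29, n = 4), was wider than the pooled SD, although the step from gamma-delta to alpha-beta T cells only just so (105.3 against 105.1 CPM).

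Over all lymphocytes Cxcr6 was at 100, 219, 554, 226, 196 and 306 CPM. Both IMQ libraries lay above Sham (1.51, SE 0.50), with an unadjusted p of 0.0171 in the edgeR fit and an adjusted p of 0.272, so the change was not called. The gap between Sham 2 and IMQ 2 was small. Type 17 cells numbered 2, 25, 102, 32, 6 and 63, and the sum cannot tell more such cells from more Cxcr6 per cell. The change for IMQ+SHP099 against IMQ was -0.70 (SE 0.49, adjusted p = 1.00), and leaving out single libraries moved it between -1.18 and 0.018.

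Within single lymphocytes Cxcr3 went with Ifng more than Cxcr6 did. Of 443 lymphocytes with an Ifng UMI, 26.6% had Cxcr3, against 3.52% of those without Ifng, and Ifng was found in 61.1% of the 193 lymphocytes with Cxcr3. For Cxcr6 the same shares were 16.0% of Ifng cells and 36.5% of cells without Ifng. Only 46 lymphocytes had both Cxcr3 and Cxcr6, 23.8% of the Cxcr3 cells and 5.42% of the 849 Cxcr6 cells. Within NK cells alone 25.0% of Ifng cells had Cxcr3 against 19.4% of the others, and within alpha-beta T cells 33.3% against 16.0%. Cells with both Ifng and Cxcr3 were deeper than the class (median 4829 against 2736 UMIs), and the part of depth was not tested.

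**Figure D5:**
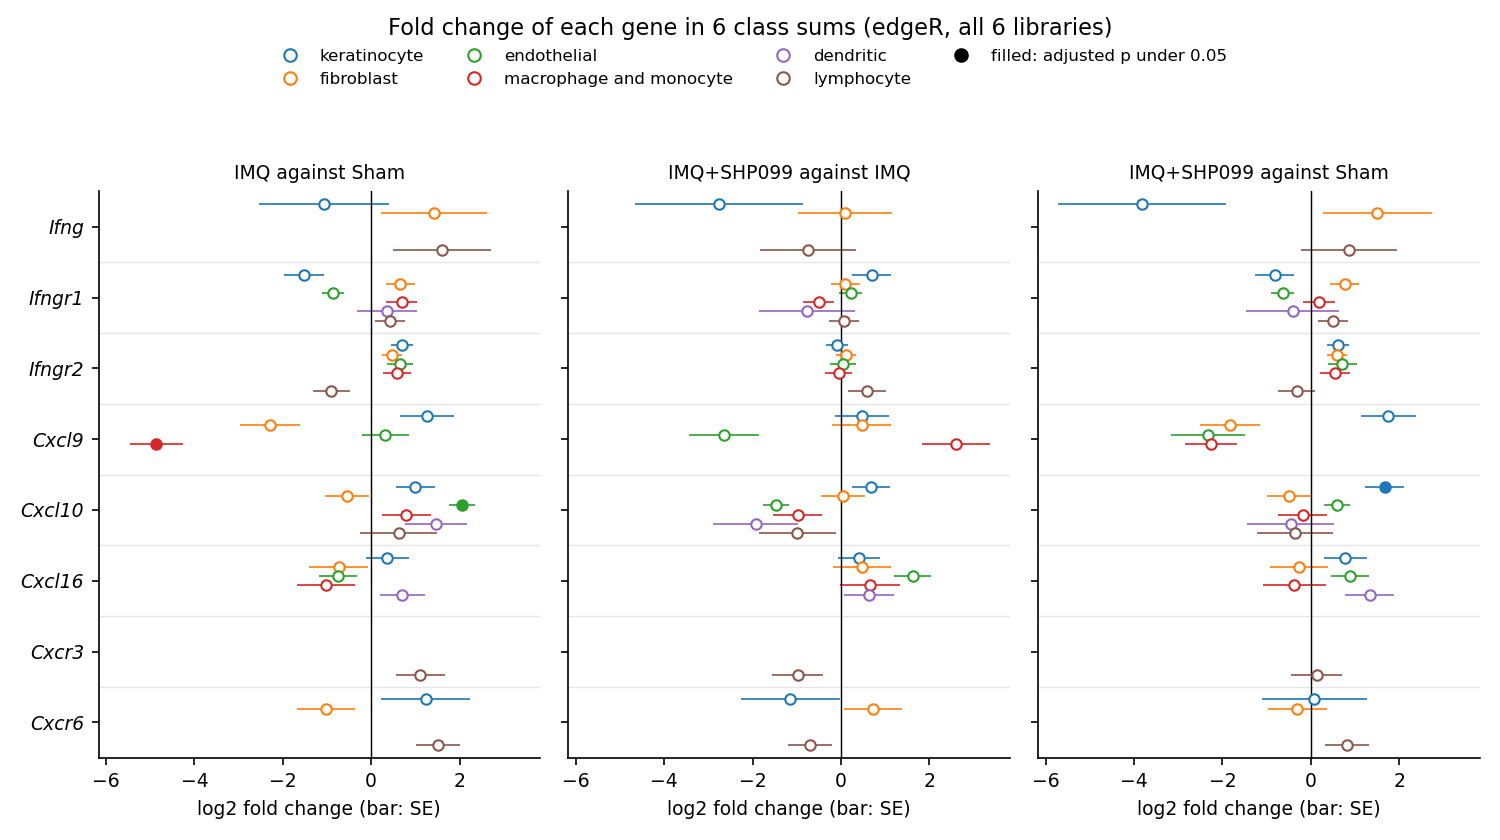
Log2 fold change of each member with its SE in 6 sums and 3 contrasts from the edgeR fits; filled points passed an adjusted p of 0.05 and open points did not. The filled points are Cxcl10 in endothelial cells (2.07) and Cxcl9 in macrophages with monocytes (-4.86) for IMQ against Sham, and Cxcl10 in keratinocytes (1.67) for IMQ+SHP099 against Sham.

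Other genes of the pathway were followed in 4 lists with 55 genes: 13 signals that induce Ifng, 14 transducers and brakes below the receptor, 22 classical targets of interferon gamma, and 6 genes of chemokine handling and shedding. In keratinocytes of IMQ against Sham skin, 41 could be tested, of which 3 rose and 11 fell where 12.3% of all genes of that sum were called, and their median log2 fold change was -0.75 beside -0.09 over all genes. The targets had the lowest median, -1.68 over 16 genes, of which 1 rose and 6 fell. Those that fell included the class II antigen presentation genes H2-Eb1 (-4.19, adjusted p = 0.0450), Cd74 (-4.01, adjusted p = 0.0391) and H2-Ab1 (-3.81, adjusted p = 0.0385). All 3 calls were lost without Sham 1 and without any IMQ or IMQ+SHP099 library. Over the 6 libraries left out in turn the changes ran from -5.06 to -1.79 for H2-Eb1, from -4.89 to -1.49 for Cd74 and from -4.63 to -1.74 for H2-Ab1, each smallest without Sham 1. Cd74, the invariant chain, was at 676, 91.9, 19.1, 25.1, 67.3 and 29.8 CPM in keratinocytes. These genes were abundant in dendritic and other myeloid cells, and the Sham 1 library that set the highest value also held 95 Langerhans cells. IMQ+SHP099 1, the other keratinocyte-rich library, held Langerhans cells too. Cd74 in myeloid cells was at 39493 CPM in Sham 1 and 22658 in IMQ+SHP099 1, while in keratinocytes it was at 676 and 67.3. Myeloid carry-over into the sum of keratinocytes was not tested.

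Of the signals that induce Ifng, Il12rb2, the inducible chain of the interleukin 12 receptor, fell by 5.98 on the log2 scale in IMQ keratinocytes (SE 0.89, adjusted p = 0.00597), from 18.8 and 15.9 to 0.352 and 0.0419 CPM. Il15, a growth factor of NK cells, fell by 3.59 (adjusted p = 0.00835), from 6.92 and 7.80 to 0.282 and 0.754 CPM. Il18, which acts with interleukin 12 on NK cells, rose by 2.09 (SE 0.49, adjusted p = 0.0316), from 3.38 and 1.61 to 8.57 and 10.1 CPM. Below the receptor Socs1, an inhibitor of JAK signals, rose by 2.09 (adjusted p = 0.00573) and Nlrc5, the activator of class I antigen presentation genes, fell by 2.27 (adjusted p = 0.00226). Psmb10, a subunit of the immunoproteasome, was the target that rose (1.38, adjusted p = 0.0276), with 22.9 and 19.7 CPM in Sham and 44.6 and 47.2 in IMQ. The calls of Il12rb2, Socs1 and Nlrc5 held whichever single library was left out. That of Il15 was lost without IMQ 1 (-3.02), that of Il18 without any IMQ or IMQ+SHP099 library (2.04 to 2.17), and that of Psmb10 without Sham 2 or either IMQ library (1.06 to 1.40).

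In IMQ+SHP099 against Sham, 5 of the 41 genes rose and 5 fell in keratinocytes, where 13.3% of all genes were called (median -0.73 beside -0.06 over all genes). With the replicate block 5 were called higher and 11 lower, where 20.5% of all genes were called. Cd274, the checkpoint ligand PD-L1, rose by 2.54 (adjusted p = 0.0102) and was at 4.25, 6.09, 13.1, 10.5, 27.9 and 14.1 CPM over the 6 libraries. Il18 (2.11), Socs1 (1.82), Psmb10 (1.65) and Serping1 (1.29) also rose, and Il15 (-4.49), Il12rb2 (-4.38), Iigp1 (-3.74), Nlrc5 (-1.84) and Irf9 (-0.93) fell. Of these calls that of Socs1 held whichever single library was left out, and that of Serping1 was lost in each case (1.00 to 1.59). Iigp1 (-8.00 to -2.79) and Irf9 (-1.08 to -0.82) were called only without Sham 1. Without IMQ+SHP099 1 the calls of Cd274 (1.72), Psmb10 (1.36), Il15 (-5.86), Nlrc5 (-1.77), Il18 (1.81) and Il12rb2 (-7.13) were lost, and without IMQ+SHP099 2 also those of Il18 (2.37) and Il12rb2 (-3.87). No gene of the lists was called in any sum by edgeR for IMQ+SHP099 against IMQ. The median in keratinocytes was then 0.28 beside 0.05 over all genes.

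In endothelial cells, where Cxcl10 rose, none of the 19 other targets tested was called higher. Of these 1 was called lower, and their median was -1.71 for IMQ against Sham beside -0.03 over all genes. The gene that fell was Gbp4, a guanylate-binding protein, at 279, 215, 33.1, 31.1, 38.9 and 72.9 CPM (-2.85, SE 0.34, adjusted p = 0.0253). Its call was lost without either IMQ library (-2.92 and -2.80, adjusted p up to 0.170). Gbp2 was at 408, 164, 53.7, 71.2, 72.5 and 116 CPM (-2.11, SE 0.48, adjusted p = 0.139). In both genes IMQ lay below the range of Sham, the opposite of Cxcl10, although only the change of Gbp4 was called.

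Macrophages with monocytes had 42 testable list genes, of which 1 rose and 8 fell for IMQ against Sham, where 6.01% of all genes were called (median -0.19 beside -0.01 over all genes). Il18rap, a chain of the interleukin 18 receptor, rose (2.69, adjusted p = 0.0222). The genes that fell most were Iigp1 (-3.80), H2-Eb1 (-3.22), H2-Aa (-3.20), H2-Ab1 (-3.09), Cd74 (-2.67) and Ciita (-2.17), the last being the activator of class II genes. Il18rap (2.58 to 7.76) and Ciita (-2.69 to -1.69) lost their calls without Sham 2 or either IMQ library, 7.76 being the change of Il18rap without Sham 2. Without IMQ 1 the calls of Iigp1, H2-Eb1, H2-Aa, H2-Ab1 and Cd74 were lost as well (-3.09 to -2.60), as were those of Iigp1 (-2.59) and H2-Aa (-3.18) without Sham 2 and of Cd74 (-2.70) without IMQ 2. H2-Ab1 was at 6060, 5270, 552, 621, 735 and 336 CPM. This sum was mostly macrophages in Sham and in IMQ+SHP099 1 (30 macrophages and 19 monocytes) and mostly monocytes in the other 3 libraries. H2-Aa (-3.29), H2-Ab1 (-3.23), H2-Eb1 (-3.12) and Cd74 (-2.65) also fell for IMQ+SHP099 against Sham, where 2.54% of all genes were called, and all 4 lost their calls without Sham 2 or without IMQ+SHP099 2 (-3.41 to -2.30).

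No list gene was called in fibroblasts (45 tested, median -0.53) or in lymphocytes (42 tested, median -0.08) for IMQ against Sham. In fibroblasts Gbp2 was at 74.8, 84.5, 32.2, 41.2, 48.0 and 63.2 CPM, and both IMQ libraries were below Sham (-1.05, SE 0.24, adjusted p = 0.115). Gbp3 gave -1.52 in the same cells (SE 0.34, adjusted p = 0.115), and Jak1 gave 0.05 (SE 0.26, adjusted p = 0.987). In lymphocytes Il12rb2 was at 160, 90.2, 23.4, 13.3, 45.7 and 30.8 CPM, with all treated libraries below Sham (-2.55 for IMQ against Sham, SE 0.44, adjusted p = 0.199). Il12rb1, the constant chain of that receptor, gave 0.60 (SE 0.46, adjusted p = 0.555). Jak1 was at -0.14 (adjusted p = 0.863), Gbp2 at 0.10 (adjusted p = 0.96) and Adam10, which sheds CXCL16, at 0.11 (adjusted p = 0.918) on the log2 scale. These lymphocyte changes were within the spread between libraries apart from that of Il12rb2, whose groups did not overlap. With the replicate block 5 of the 42 list genes were called in lymphocytes, with Irf8 (1.5) and Tbx21 (1.32), the gene of T-bet, higher and Il12rb2 (-2.57), H2-Aa (-2.94) and H2-Ab1 (-2.17) lower, and in fibroblasts Gbp5 (-2.77) was called lower.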

How the data were processed

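The authors made whole-number UMI counts per gene and barcode with Cell Ranger 3.1.0 on GRCm38 (mm10), and deposited them as filtered matrices per library. Cells under 100000 UMIs, 6500 genes and 10% mitochondrial counts were kept, as in the study. Scores over 151 marker genes (log counts per 10000 UMIs, scaled to the 0.95 quantile of each gene) set the classes: a score of at least 0.2, 0.1 above the next class, no second major class at 0.2, and for subsets 0.15 and 0.05. After the data were seen, the lymphocyte score became the higher of the T cell and NK lists, and Fcer1g and Tyrobp left the myeloid score. The authors' cell annotation was not used.

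The study tested cells by rank sums. Here counts were summed per library and class and tested with edgeR 4.0.16 (TMM, filterByExpr, quasi-likelihood, group as the only term), with DESeq2 1.42.0 as an alternative (R 4.3.3, limma 3.58.1, Python 3.11.15, numpy 2.4.6, scipy 1.17.1, pandas 2.3.3). The fits were tested on simulated data. The labels give the groups the same replicate numbers and name no shared batch. Across genes, deviations of same-numbered libraries correlated at 0.209 to 0.562 in every pair of groups over all cells, myeloid cells and lymphocytes, and at -0.143 to 0.241 in the other 5 sums, none of which passed 0.1 in every pair. Values with the replicate number as a block are given where they changed a call of a member. For list genes in IMQ against Sham, the block gave 5 higher and 16 lower in keratinocytes, where 19.0% of all genes were called. In macrophages with monocytes it gave 1 higher and 10 lower (6.16% of all genes), and 5 lower for IMQ+SHP099 against Sham (3.66%). Over all cells 1 list gene was lower in each contrast with Sham (1.65% and 0.811%). Other alternatives were no filter, a replicate block, 4 libraries alone, single libraries left out, a 5% mitochondrial limit, a stricter gate and cells thinned to 2000 UMIs, with 1000 for shares. Precision follows the Poisson interval of the UMIs given. All members are named. List genes past the threshold are named up to 6 a direction and sum, otherwise the first of each list in written order. A further list gene is not reported here. Nearest genes used log2(CPM + 1). Members and lists were chosen with earlier results of these data known, so no count of theirs is independent support.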

Additional observations from a re-analysis of the deposited data

Results flagged for a closer look

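For 18 pairs of classes, the same contrast went in opposite directions, with both libraries of one group above both of the other in one class and below them in the other class. The difference between the classes was not tested in any of them, and the values are differences of log2 fold changes.

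For IMQ against Sham, Cxcl9 was higher in keratinocytes and lower in fibroblasts (difference 3.56) and in macrophages with monocytes (6.13). Ifngr1 was higher in fibroblasts and lower in keratinocytes (2.17) and endothelial cells (1.52), and it was also higher in macrophages with monocytes than these 2 classes (2.20 and 1.54). Among endothelial cells the lower mean of Ifngr1 was in blood cells (299 CPM in Sham, 107 in IMQ) and not in lymphatic cells (81.8 and 91.9). Ifngr2 was lower in lymphocytes and higher in fibroblasts (1.38), endothelial cells (1.56) and macrophages with monocytes (1.5). Cxcr6 was higher in lymphocytes and lower in fibroblasts (2.53), where it had only 3 to 28 UMIs a library. Cxcl16 was higher in dendritic cells and lower in endothelial cells (1.44) and in macrophages with monocytes (1.73). The sum of macrophages with monocytes was mostly macrophages in Sham and mostly monocytes in IMQ, which limits the pairs of Cxcl9, Ifngr1 and Ifngr2 as well. In macrophages alone the mean of Cxcl16 was 182 CPM in Sham and 209 in IMQ, and in monocytes it was 64.7 and 43.0. The dendritic sum held only 8 and 20 cells in the IMQ libraries.

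In the contrast of IMQ+SHP099 with IMQ, Cxcl10 was higher in keratinocytes and lower in endothelial cells (2.14), macrophages with monocytes (1.65) and lymphocytes (1.66). Ifngr1 was higher in keratinocytes and lower in macrophages with monocytes (1.20). For IMQ+SHP099 against Sham, Ifngr1 was higher in fibroblasts and lower in keratinocytes (1.58) and endothelial cells (1.40).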

How the results depend on the processing

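The number of members called depended on the setting. For IMQ against Sham it was 2 as reported, 4 with DESeq2, 9 with no filter on low counts, 1 with only the 4 libraries compared, and 1 to 4 when single libraries were left out. Between IMQ+SHP099 and IMQ it was 0, but 3 with no filter and 1 with only 4 libraries. Between IMQ+SHP099 and Sham it was 1, but 2 with DESeq2, 6 with no filter, 2 with the stricter gate, and 0 to 4 with single libraries left out. Without Sham 1 and IMQ+SHP099 1 together, chosen after seeing the data, the 3 counts were 16, 3 and 8, with 1 library in each of those groups assumed to vary like IMQ. The cause was not tested.

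Of the called changes, Cxcl10 in endothelial cells lost its call with only 4 libraries (2.08, adjusted p = 0.132), with cells thinned to 2000 UMIs (1.40, adjusted p = 0.159) and in blood endothelial cells alone (1.82). Left-out libraries gave 1.9 to 2.33 for it, 1.19 to 2.28 for Cxcl10 in keratinocytes and -5.88 to -3.73 for Cxcl9 in macrophages with monocytes. With the replicate block the counts were 6, 0 and 2. The 5 changes of members that it moved past the threshold are given with those results. In single changes the block gave 2.09 (adjusted p = 0.0294) for Cxcl10 in endothelial cells, and reversed Cxcl10 in lymphocytes for IMQ+SHP099 against Sham to 0.19. Thinning gave 0.43 there.

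Other reversals were all among uncalled changes. In gamma-delta T cells alone, for lymphocytes, Cxcl10 became -0.36 and Ifng -0.064 for IMQ against Sham, and Ifng 0.87 for IMQ+SHP099 against IMQ. Without Sham 1 and IMQ+SHP099 1, Cxcl10 in lymphocytes became -0.19 for IMQ against Sham and Cxcr3 -0.08 for IMQ+SHP099 against Sham. Leaving out single libraries moved changes in lymphocytes from -0.25 to 3.21 (Cxcl10) for IMQ against Sham, from -1.24 to 2.22 (Cxcl10), -0.43 to 1.33 (Cxcr3) and -0.48 to 4.15 (Ifng) for IMQ+SHP099 against Sham, and from -1.18 to 0.018 (Cxcr6) for IMQ+SHP099 against IMQ. Cxcl9 moved from -3.96 to 0.16 (-4.29 without both keratinocyte-rich libraries) in endothelial cells for IMQ+SHP099 against Sham and from -4.98 to 3.63 in macrophages with monocytes for IMQ+SHP099 against IMQ. With few NK and endothelial cells in Sham 1 and IMQ+SHP099 1, depth limits what could be detected there.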

Other observations

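Over 72 class-by-library sums of at least 30 cells and 15189 genes with at least 200 UMIs, the genes whose log2(CPM + 1) ran closest to each member were listed as a description, by Pearson's r across sums that share libraries and depth. Ifng ran closest to Gm2682 (0.958), the NK receptor gene Klra1 (0.957) and Tbx21 (0.953), the transcription factor T-bet. Cxcr3 ran closest to Klra1 (0.878), Gm2682 (0.874) and Sh2d1a (0.861), and Cxcr6 to the T cell receptor genes Cd3g (0.964) and Cd3d (0.96), both used in the gates, and Camk4 (0.954). Cxcl10 ran closest to AW112010 (0.724), Ifit1 (0.648) and Ifi47 (0.643), the last pair being interferon-induced genes. Cxcl16 ran closest to Cyp27a1 (0.793), Erp29 (0.790) and Bco2 (0.780). For Cxcl9 the closest genes were Gm38399 (0.618), Slc27a3 (0.608) and Slc22a18 (0.595), the lowest values of the 6 members compared.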
